A study of Mus musculus with 4 samples.

Results

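The 10 mouse Toll-like receptor genes Tlr1, Tlr2, Tlr3, Tlr4, Tlr5, Tlr6, Tlr7, Tlr8, Tlr9 and Tlr13 were taken by symbol from RNA-seq count tables of 4 tumor libraries. All 10 symbols were found among the 25239 symbols of each table. A total of 9 of them, all but Tlr5, had a mean of at least 10 reads over the 4 libraries, as had 13357 genes in all. The receptors were divided into 5 that sit at the cell surface (Tlr1, Tlr2, Tlr4, Tlr5 and Tlr6) and 5 that detect nucleic acids in endosomes (Tlr3, Tlr7, Tlr8, Tlr9 and Tlr13).

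Tumors were B16, a transplantable mouse melanoma, grown under the skin of both flanks of B6 mice. Every group had CTX by intraperitoneal injection on the day preceding ACT, a term left unexplained in the labels. Treatment started at day 7 of tumor growth, and tumors were collected 12 days following ACT. For the CTX library the treatment label names PBS, injected into left tumors, as the only further agent. Left tumors that were injected with free MV, combined with intravenous TRP-1 T cells, gave the MV left tumor library. The right, uninjected tumors of that same arm gave the remote tumor library. For TRP-1MV the T cells themselves carried MV and were infused intravenously. Which flank the CTX and TRP-1MV tumors grew on is not stated. MV is spelled MYXV in the column headers, the usual abbreviation of myxoma virus, a poxvirus with a DNA genome. TRP-1 is the pigment cell enzyme encoded by Tyrp1. A T cell arm lacking virus was not analysed here, so the T cells and the virus cannot be told apart in the comparisons with CTX.

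Toll-like receptors are innate immune sensors that recognise molecules of microbes and of damaged cells through leucine-rich repeats, and signal through a cytoplasmic TIR domain. All of those studied here except Tlr3 recruit the adaptor MyD88, while Tlr3 uses the adaptor TRIF and Tlr4 uses both. Macrophages, neutrophils, dendritic cells and B cells carry different sets of them, and some tumor and stromal cells also transcribe members of the family.

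Each group had 1 library, so no test between groups was possible. A sample size of n = 2 is stated in the labels, and pooling of mice is not mentioned. Total counts lay between 12375526 in the MV left tumor and 21790759 in the remote tumor, and a count of 0 allowed up to 0.151 to 0.222 CPM. CPM is the read count scaled to library size, here with TMM, a method that equalises the bulk of genes between libraries. Values in brackets are 95% exact (Clopper-Pearson) intervals, which cover counting error only and not differences between animals or library preparations. Calls of higher or lower required a ratio of 2 or more together with an interval that excluded equality. All 9 melanocyte markers had reads in all 4 libraries, from a summed 25903 CPM in CTX and 26373 in the remote tumor to 6081 in the MV left tumor and 5688 in TRP-1MV.

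The family was carried by other members in the MV left tumor and TRP-1MV than in the CTX and remote tumors. In CTX, Tlr4 and Tlr3 held 94.1% of the 1793 reads of the 10 genes [93.0, 95.2], and in the remote tumor 92.3% of 1690 [90.9, 93.5]. In the MV left tumor they held 40.1% of 1917 reads [37.9, 42.3] and in TRP-1MV 34.6% of 3216 [33.0, 36.3]. The other 8 genes together stood at 5.48 CPM in CTX, 6.53 in the remote tumor, 85.0 in the MV left tumor and 131 in TRP-1MV. Per kilobase of exon, which corrects for transcript length, the shares of Tlr3 and Tlr4 were 91.3%, 88.3%, 30.4% and 25.8% in CTX, the remote tumor, the MV left tumor and TRP-1MV. Summed Tlr3 and Tlr4 stood at 88.0, 78.4, 56.8 and 69.1 CPM in that order.

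**Figure D1:**
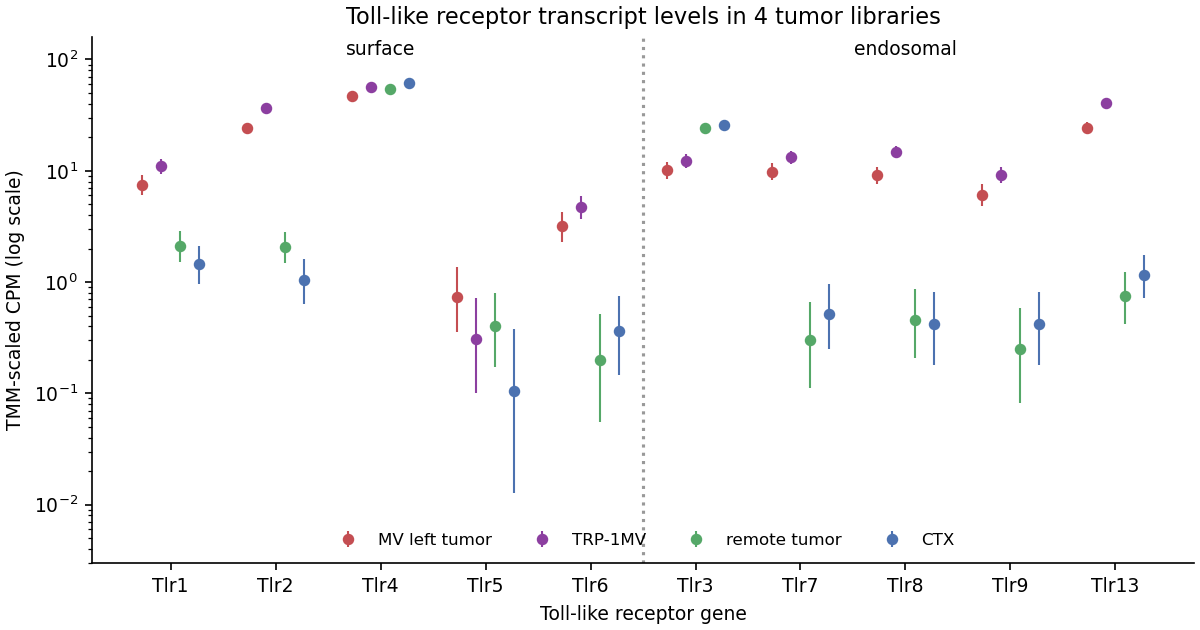
TMM-scaled CPM (log axis) of the 10 Toll-like receptor genes in the 4 tumor libraries, 1 point per library, with bars for the 95% counting interval. Tlr4 lies between 46.7 and 62.1 CPM in all 4 libraries, whereas Tlr2 and Tlr13 lie at 24.2 to 40.9 CPM in the MV left tumor and TRP-1MV and at 0.754 to 2.06 CPM in the remote tumor and CTX.

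Tlr2 encodes the surface receptor that pairs with TLR1 or TLR6 to bind bacterial lipoproteins (mm10 chromosome 3, 83836272 to 83841767, minus strand). Its level was 24.2 CPM in the MV left tumor, 36.6 in TRP-1MV, 2.06 in the remote tumor and 1.04 in CTX. The intervals of the first 2 libraries lay far above those of the other 2. Against CTX, Tlr2 was 23.2-fold higher in the MV left tumor, a log2 ratio of 4.54 [3.89, 5.27]. It was 35.1-fold higher in TRP-1MV, with a log2 ratio of 5.13 [4.49, 5.85]. The remote tumor had 41 Tlr2 reads against 20 in CTX, a log2 ratio of 0.98 [0.18, 1.83], just under the fold required for a call.

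Tlr1 and Tlr6 encode the partners of TLR2 for triacylated and diacylated lipopeptides, and lie near each other on chromosome 5 (Tlr1 at 64924679 to 64933563, Tlr6 at 64952031 to 64960097, both on the minus strand). Tlr1 stood at 7.47 CPM in the MV left tumor, 11.0 in TRP-1MV, 2.11 in the remote tumor and 1.46 in CTX. Tlr6 stood at 3.18, 4.72, 0.201 and 0.365 CPM in that order, with only 4 and 7 reads in the remote tumor and CTX. For both genes the libraries fell into the same 2 pairs as for Tlr2. Against CTX, Tlr1 was higher with a log2 ratio of 2.36 [1.74, 3.02] in the MV left tumor and 2.91 [2.33, 3.54] in TRP-1MV. Tlr6 was higher at 3.12 [1.96, 4.52] and 3.69 [2.58, 5.05]. Tlr1 thus had the smallest ratios of the members called higher in these comparisons. Per kilobase of exon, Tlr2 exceeded Tlr1 3.59-fold [2.87, 4.54] in the MV left tumor and 3.69-fold [3.12, 4.40] in TRP-1MV. In CTX, with 20 and 28 reads, the Tlr2 to Tlr1 ratio was 0.793 [0.423, 1.46].

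Tlr1 and Tlr6 are close paralogs, and the count tables do not say how reads matching both were treated. Their transcripts shared 454 stretches of 50 bases, 13.6% of those in Tlr1 and 12.3% of those in Tlr6, and no other pair of the 10 genes shared any. The longest identical run, 229 bases within the coding sequence of both, is shown because reads from it cannot be assigned to either gene. It lies at chr5:64925537-64925765 in Tlr1 and chr5:64953828-64954056 in Tlr6 (GRCm38, minus strand, from the GENCODE M21 transcripts).
Tlr1 and Tlr6 shared run: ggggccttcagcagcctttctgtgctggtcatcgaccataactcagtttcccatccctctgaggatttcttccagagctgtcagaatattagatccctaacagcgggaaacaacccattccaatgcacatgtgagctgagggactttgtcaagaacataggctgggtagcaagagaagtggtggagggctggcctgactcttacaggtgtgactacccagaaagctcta

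Tlr4 encodes the receptor for bacterial lipopolysaccharide (chromosome 4, 66827584 to 66930284). It was at 46.7 CPM in the MV left tumor, 56.8 in TRP-1MV, 54.3 in the remote tumor and 62.1 in CTX. The 4 libraries lay close together, and no comparison passed the call rule. The log2 ratio to CTX was −0.41 [−0.55, −0.27] in the MV left tumor, −0.13 [−0.25, −0.0018] in TRP-1MV and −0.19 [−0.31, −0.07] in the remote tumor. The sign of the first 2 depended on the scaling, with 0.13 and 0.40 when libraries were scaled on 13 housekeeping genes and 0.11 in TRP-1MV with total counts. Against the remote tumor, Tlr4 in the MV left tumor stood at −0.22 [−0.36, −0.075], and at 0.37 and 0.04 with those scalings. Tlr4 per kilobase exceeded Tlr2 32.3-fold [20.8, 53.0] in CTX and 14.3-fold [10.5, 20.05] in the remote tumor. That ratio was 1.05 [0.914, 1.20] in the MV left tumor and 0.843 [0.759, 0.936] in TRP-1MV, so the order of the pair was turned round in TRP-1MV.

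Tlr5, the flagellin receptor gene (chromosome 1, 182954788 to 182976044), had 10 reads in the MV left tumor, 5 in TRP-1MV, 8 in the remote tumor and 2 in CTX. These counts lie under the minimum mean of 10, and no ratio of Tlr5 is called. Its level was 0.740 CPM or less in all 4 libraries.

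Tlr3 encodes the receptor for double-stranded RNA (chromosome 8, 45395665 to 45411080, minus strand) and was the only member called lower. It stood at 10.1 CPM in the MV left tumor, 12.3 in TRP-1MV, 24.1 in the remote tumor and 26.0 in CTX. The first 2 libraries lay below the other 2 and their intervals did not meet. Against CTX the log2 ratio was −1.36 [−1.64, −1.08] in the MV left tumor and −1.08 [−1.32, −0.84] in TRP-1MV. The remote tumor was at −0.11 [−0.29, 0.07]. The call was lost in both tumors on the housekeeping scale, with −0.82 [−1.10, −0.54] and −0.55 [−0.79, −0.31], and in TRP-1MV with total counts, with −0.84. The 9 melanocyte markers were all lower than CTX in the same 2 libraries, from −2.45 to −1.62 in the MV left tumor and from −2.61 to −1.72 in TRP-1MV. As a point value the Tlr3 difference was smaller in size than that of each marker. In the MV left tumor its interval met those of Mitf (−1.62 [−1.68, −1.55]) and Slc45a2 (−1.67 [−1.72, −1.62]). In TRP-1MV the Tlr3 interval met none of the 9, the nearest being that of Mitf (−1.72 [−1.78, −1.66]). The part of the melanocyte markers in the Tlr3 result was not tested. In bulk tumors fewer cells of a type and less RNA per cell cannot be told apart. The unnamed gene model Gm45542 on the opposite strand overlaps 7.32% of the exon bases of Tlr3, and no strand setting is given.

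Tlr7 and Tlr8, neighbours on the X chromosome (167304929 to 167330558 and 167242696 to 167264329), encode receptors of single-stranded RNA. Tlr7 stood at 9.84 CPM in the MV left tumor, 13.2 in TRP-1MV, 0.301 in the remote tumor and 0.521 in CTX. Tlr8 stood at 9.10, 14.7, 0.452 and 0.417 CPM in that order. In the remote tumor and CTX these were 6 to 10 reads a gene, so that the ratios rest on few reads on 1 side. The log2 ratio to CTX was 4.24 [3.31, 5.33] in the MV left tumor and 4.66 [3.75, 5.74] in TRP-1MV for Tlr7, and 4.45 [3.42, 5.69] and 5.14 [4.14, 6.37] for Tlr8. Per kilobase the Tlr7 to Tlr8 ratio was 0.950 [0.738, 1.22] in the MV left tumor and 0.786 [0.650, 0.950] in TRP-1MV.

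Tlr9 encodes the receptor for DNA with unmethylated CpG (chromosome 9, 106222598 to 106226883). It had 82 reads and 6.07 CPM in the MV left tumor, 149 and 9.25 in TRP-1MV, 5 and 0.251 in the remote tumor, and 8 and 0.417 in CTX. Against CTX it was higher at 3.86 [2.82, 5.12] in the MV left tumor and 4.47 [3.46, 5.71] in TRP-1MV.

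Tlr13, a receptor of bacterial ribosomal RNA in mice (X chromosome, 106143204 to 106160493), was the most abundant endosomal member per kilobase in the MV left tumor and TRP-1MV. It stood at 24.4 CPM in the MV left tumor, 40.9 in TRP-1MV, 0.754 in the remote tumor and 1.15 in CTX. Tlr13 was 21.3-fold higher than CTX in the MV left tumor and 35.6-fold higher in TRP-1MV, log2 ratios of 4.41 [3.79, 5.11] and 5.15 [4.54, 5.84]. Per kilobase it exceeded Tlr3 2.91-fold [2.38, 3.58] in the MV left tumor and 4.02-fold [3.42, 4.74] in TRP-1MV. In CTX that ratio was 0.0534 [0.0332, 0.0818] and in the remote tumor 0.0379 [0.0210, 0.0631], so the order of these 2 receptors differed between the pairs of libraries.

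**Figure D2:**
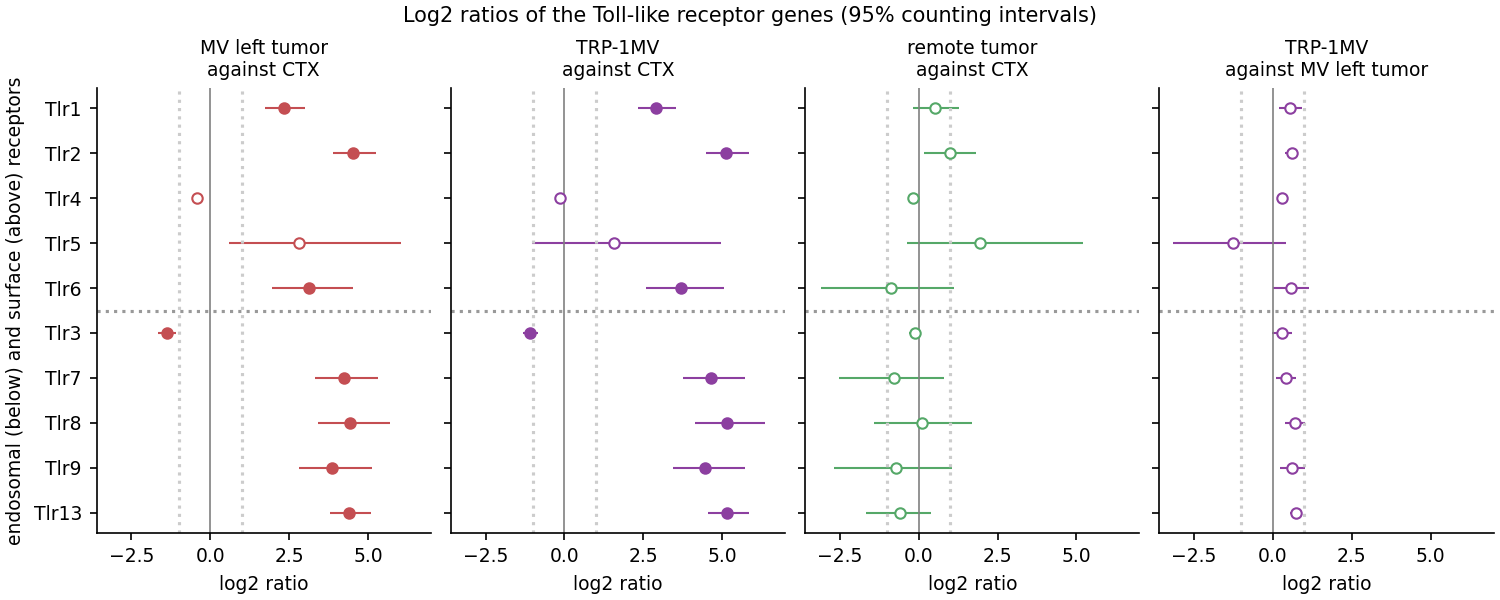
Log2 ratios of the 10 genes (x axis) with 95% counting intervals in 4 comparisons, surface receptors above the dotted line and endosomal ones below, filled points for calls and dotted vertical lines at a ratio of 2. In both left panels 7 genes are called higher and Tlr3 lower, while the 2 right panels hold no call.

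In all, 7 of the 9 members compared were higher than CTX in the MV left tumor and 1 was lower, beside 18.1% of 13357 genes higher and 11.1% lower. In TRP-1MV the same counts, 7 and 1, stood beside 18.5% and 11.7%. Tlr6, Tlr7, Tlr8 and Tlr9 averaged fewer than 10 reads over the remote tumor and CTX and passed the minimum through the other 2 libraries alone, so a difference was built into their selection. Tlr1, Tlr2, Tlr3, Tlr4 and Tlr13 each had at least 20 reads in CTX, and of these 3 were higher and Tlr3 was lower in both tumors. The median log2 ratio of the 9 genes was 3.86 in the MV left tumor and 4.47 in TRP-1MV, and that of all genes −0.05 and −0.07. The MV left tumor and its uninjected counterpart on the other flank also gave 7 genes higher and Tlr3 lower, beside 18.6% and 11.7% of all genes. The Tlr3 call was lost there with total counts, at −0.99, and on the housekeeping scale, at −0.66. The log2 ratio ran from −1.25 for Tlr3 to 5.03 for Tlr7, and was 3.55 [3.08, 4.06] for Tlr2 and 5.02 [4.28, 5.87] for Tlr13. The comparisons that use the MV left tumor share that library and those with CTX share the CTX library.

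Markers of several leukocyte types were higher in the same 2 libraries. The 15 macrophage and monocyte markers summed to 987 CPM in the MV left tumor and 1416 in TRP-1MV, against 93.9 in CTX and 113 in the remote tumor, and all 15 had reads in all 4 libraries. Against CTX, 12 of 15 were higher in the MV left tumor and 13 in TRP-1MV. Of all genes 18.1% and 18.5% were higher, the shares to set beside each count of called markers in this paragraph. Cx3cr1, with 3 reads or fewer in CTX and the remote tumor, passed the minimum through the MV left tumor and TRP-1MV alone. The 9 neutrophil markers summed to 166 and 265 CPM against 0.834 and 1.41, with S100a8, Cxcr2, Retnlg and Ngp at 0 in CTX, S100a8, Ly6g, Retnlg, Camp and Ngp at 0 in the remote tumor, and Retnlg at 0 in the MV left tumor. Mmp8 alone, encoding a collagenase, made up 143 and 229 CPM of these sums, with 1929 and 3687 reads. Ly6g, a defining neutrophil marker, had 1 read in the MV left tumor and 3 in TRP-1MV, and Cxcr2 11 and 7. The 8 dendritic cell markers summed to 265 and 399 CPM against 14.0 and 13.1, and 4 of the 5 compared were higher in both tumors. Of those 4, Ccr7 and Flt3 had 10 reads or fewer in CTX and the remote tumor. Both passed the minimum through the MV left tumor and TRP-1MV alone. Fscn1, Ccr7 and Itgax made up 93.2% of that sum in the MV left tumor and 96.2% in TRP-1MV, whereas Zbtb46 at 0.80 and 0.62 was no call. In the MV left tumor the reads of Xcr1, Clec9a and Cd209a numbered 13, 9 and 2. Of the B cell markers, 7 are given here, which summed to 47.6 and 51.5 CPM against 0.939 and 0.955. Ms4a1, Blk and Fcer2a were at 0 in CTX and Cd79b and Blk in the remote tumor, and 5 of 5 compared were higher than CTX in both tumors. These 5 had 11 reads or fewer in CTX and the remote tumor. They passed the minimum through the MV left tumor and TRP-1MV alone, so a difference was built into their selection. The 4 markers of plasmacytoid dendritic cells, which carry much Tlr7 and Tlr9, summed to 4.81 CPM in the MV left tumor, 4.16 in TRP-1MV, 3.77 in the remote tumor and 3.13 in CTX. Of them Siglech and Ccr9 were at 0 in the MV left tumor. The 8 T cell markers summed to 230 and 228 CPM against 8.97 and 8.89, the 6 endothelial markers to 20.6 and 20.7 against 9.18 and 8.34, with 2 of 5 compared higher, and the 7 fibroblast markers to 51.9 and 51.3 against 54.3 and 51.9. The part of these cell types in the receptor results was not tested.

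Summed over each class, surface and endosomal receptors were not shifted to the same extent. The single members did not all follow their class. Of the members called higher than CTX in the MV left tumor, the surface gene Tlr2 had the largest log2 ratio, 4.54. The surface genes Tlr1 and Tlr6 had the smallest, 2.36 and 3.12. The surface class held 69.5% of the family's reads in CTX [67.4, 71.7] and 69.6% in the remote tumor [67.3, 71.8], 58.0% in the MV left tumor [55.8, 60.2] and 54.8% in TRP-1MV [53.0, 56.5]. Per kilobase of exon the surface shares were 68.2%, 68.9%, 57.9% and 55.3% in that order. Shares do not depend on the scaling between libraries, and the counting intervals of the 2 pairs of libraries do not meet. Summed surface receptors went from 65.0 CPM in CTX to 82.3 in the MV left tumor and 109 in TRP-1MV. Summed endosomal receptors went from 28.5 to 59.6 and 90.3 CPM. The log2 ratio to CTX was 0.34 [0.22, 0.46] for surface and 1.06 [0.91, 1.22] for endosomal receptors in the MV left tumor. In TRP-1MV these ratios were 0.75 [0.65, 0.86] and 1.66 [1.52, 1.81]. Tlr4 and Tlr3 carried most of the CTX level of their classes, with 1190 of 1247 surface and 498 of 546 endosomal reads. Without these 2 genes the log2 ratio was 3.58 [3.18, 4.00] for surface and 4.30 [3.88, 4.76] for endosomal receptors in the MV left tumor. The TRP-1MV values were 4.15 [3.76, 4.56] and 4.96 [4.55, 5.41], and the intervals of the 2 classes met in both tumors. The surface share was then 54.3% in CTX [44.3, 64.0], 73.1% in the remote tumor [64.6, 80.5], 41.9% in the MV left tumor [39.0, 44.8] and 40.3% in TRP-1MV [38.2, 42.4]. With only 105 reads, the CTX interval of that share met that of the MV left tumor at its lower end, and it lay just below that of the remote tumor and above that of TRP-1MV.

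**Figure D3:**
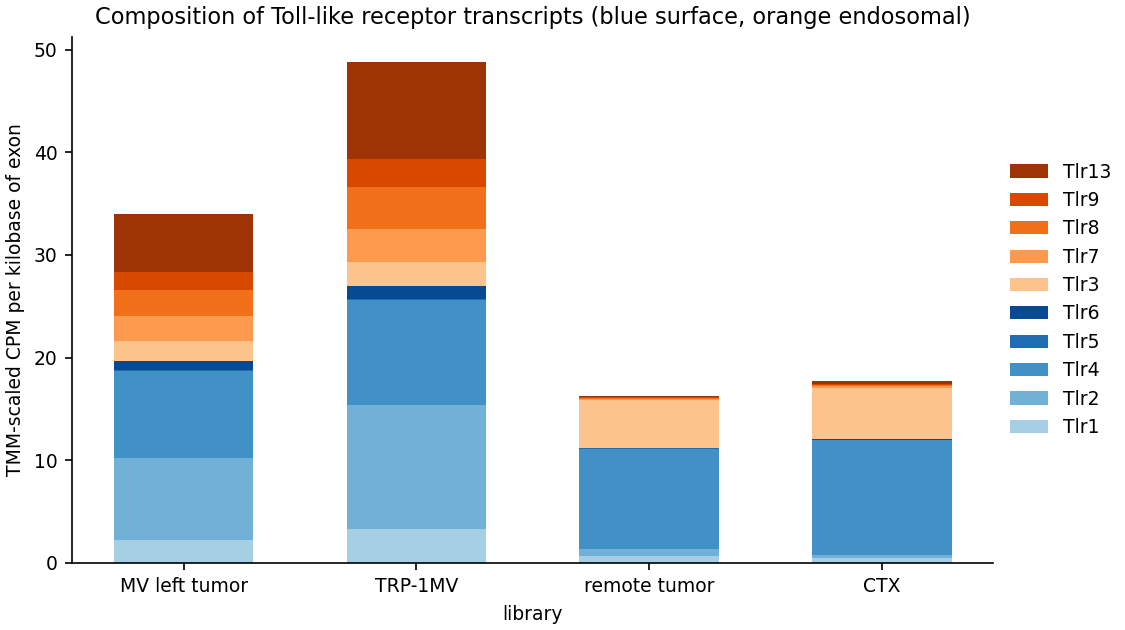
Stacked TMM-scaled CPM per kilobase of exon for the 10 genes in each of the 4 libraries, surface receptors in blue and endosomal receptors in orange. The stacks reach 34.0 in the MV left tumor, 48.8 in TRP-1MV, 16.3 in the remote tumor and 17.7 in CTX, and Tlr4 and Tlr3 make up nearly the whole of the last 2.

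The genes were ordered by level per kilobase of exon. In CTX the order began with Tlr4 at 11.2 CPM per kilobase and Tlr3 at 4.99, and the next, Tlr1, was at 0.436. From Tlr1 down, each neighbour in the CTX order had an interval that met the next. The remote tumor began with the same 2 genes, at 9.78 and 4.62. In the MV left tumor Tlr4 at 8.40 and Tlr2 at 8.03 were followed by Tlr13 at 5.67. Tlr8, Tlr7, Tlr1, Tlr3 and Tlr9 came next, between 2.54 and 1.74 with overlapping intervals of neighbours, and Tlr6 and Tlr5 were last at 0.854 and 0.154. TRP-1MV had Tlr2 first at 12.1, then Tlr4 at 10.2 and Tlr13 at 9.49, the last 2 with overlapping intervals. Tlr6 at 1.27 and Tlr5 at 0.0648 again closed the order.

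In the remote tumor none of the 9 members passed the rule against CTX, beside 0.445% of genes higher and 0.230% lower. The ratios ran from −0.86 for Tlr6 to 0.98 for Tlr2, with a median of −0.19, and the intervals of Tlr2 and Tlr4 alone excluded equality. For Tlr6, Tlr7, Tlr8 and Tlr9 the 4 to 10 reads per library left wide intervals, such as −0.79 [−2.53, 0.81] for Tlr7. The intervals of all 4 included a level 2-fold lower than CTX, so such a difference was not excluded at this depth. The same held for Tlr13, at −0.61 [−1.66, 0.41] with 15 reads against 22. Tlr1 stood at 0.53 [−0.19, 1.28]. Cd14, encoding a co-receptor of TLR4 and TLR2, had 79 reads against 25. In the same comparison 3 myeloid markers were called higher, Adgre1 with 75 reads against 34, Itgax with 39 against 18 and Csf3r with 25 against 11, and their part in the Tlr2 value was not tested.

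TRP-1MV was compared with the MV left tumor for T cell-borne against injected virus. The 9 members compared all had ratios above equality, from 0.28 for Tlr3 to 0.74 for Tlr13, with a median of 0.57 beside −0.01 for all genes. None reached the fold required for a call, which 0.562% of genes did upward and 0.217% downward. The interval lay above equality for 8 of the 9, the exception being Tlr3 at 0.28 [−0.04, 0.60], and for 11.0% of all genes. Tlr13 was at 0.74 [0.55, 0.94], Tlr8 at 0.69 [0.37, 1.02] and Tlr2 at 0.60 [0.40, 0.80]. The macrophage and monocyte markers had a median of 0.40 in the same comparison, with 14 of 15 above equality. The 5 neutrophil markers compared, of 9 listed, had one of 0.67, with 5 of 5. The dendritic cell markers had one of 0.56, with 3 of 5, and the 5 B cell markers compared one of 0.05. The T cell markers stood at −0.03. The part of these cell types in the receptor ratios was not tested. With 1 library a group, the difference between these 2 tumors cannot be told apart from a difference between animals.

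The genes that serve the receptors were described from 6 lists of 54 genes by role. In the MV left tumor 23 of 53 compared were higher than CTX and none was lower, in TRP-1MV 24 and none, and in the remote tumor 2 and none. Beside them stand 18.1% of all genes higher and 11.1% lower, 18.5% and 11.7%, and 0.445% and 0.230%. The list genes' median log2 ratio was 0.70 in the MV left tumor, 0.84 in TRP-1MV and 0.01 in the remote tumor.

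Among accessory proteins, 4 of 5 compared were higher in both tumors, beside 18.1% and 18.5% of all genes. Cd14 had 1085 reads in the MV left tumor, 1911 in TRP-1MV, 79 in the remote tumor and 25 in CTX. Its log2 ratio to CTX was 5.94 [5.38, 6.58] in the MV left tumor, 6.51 [5.94, 7.14] in TRP-1MV and 1.61 [0.94, 2.32] in the remote tumor, and all 3 were calls. Cd36, encoding a scavenger receptor that assists TLR2, stood at 5.26 and 5.87 in the first 2. Cd180, a TLR4-like receptor of B cells and macrophages, stood at 3.06 and 3.56, and its partner Ly86 at 2.27 and 2.51. Ly96 encodes MD-2, the subunit of the TLR4 complex that binds lipopolysaccharide, and its reads numbered 64 in the MV left tumor, 92 in TRP-1MV, 114 in the remote tumor and 88 in CTX. Its log2 ratios to CTX of 0.05, 0.32 and 0.32 were no calls, as was the case for Tlr4. Lbp had 12 reads or fewer in all 4 libraries.

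Of 10 genes of folding, trafficking and processing, 3 were higher in both tumors, beside 18.1% and 18.5% of all genes. The list medians were 0.05 in the MV left tumor and 0.22 in TRP-1MV, beside −0.05 and −0.07 for all genes. Reads of Unc93b1, the chaperone that takes nucleic acid receptors to endosomes, numbered 963 in the MV left tumor, 1654 in TRP-1MV, 465 in the remote tumor and 371 in CTX. It was higher than CTX at 1.88 [1.71, 2.06] and 2.41 [2.25, 2.58]. Slc15a3, an endolysosomal transporter gene, stood at 5.02 and 5.59 and Ctss, encoding the endosomal protease cathepsin S, at 4.07 and 4.61. The receptor-folding chaperones did not go with them, with Hsp90b1 (gp96) at −0.56 and −0.62 and Cnpy3 at −0.99 and −0.70, none of these a call. Cnpy3 was called lower when the MV left tumor was compared with the remote tumor, at −1.04 [−1.17, −0.90], a call lost with upper-quartile scaling (−0.98), total counts (−0.78) and on the housekeeping scale (−0.45).

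Among adaptors Myd88 was higher than CTX at 1.81 [1.62, 2.01] in the MV left tumor and 1.90 [1.71, 2.09] in TRP-1MV. Ticam1, encoding TRIF, the adaptor of TLR3, stood at 0.44 and 0.47 and Tirap at 0.52 and 0.24, none of them a call. Ticam2, encoding the adaptor TRAM of TLR4, had 115 and 196 reads against 3 in CTX, at 5.76 [4.18, 8.06] and 6.28 [4.71, 8.57]. With 10 reads in the remote tumor, it passed the minimum through the MV left tumor and TRP-1MV alone. Pik3ap1, encoding the adaptor BCAP, stood at 4.88 and 5.45 and was also higher in the remote tumor, at 1.39 [0.81, 1.99]. Sarm1 was higher at 2.12 and 1.65.

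The 16 kinases and ligases of the pathway held 1 call with TMM, and this count depended on the scaling, an alternative added after seeing the data. With TMM 0 were higher than CTX in the MV left tumor and 1 in TRP-1MV, beside 18.1% and 18.5% of all genes. On the housekeeping scale these counts were 5 and 3, beside 29.7% and 29.2% of all genes. With total counts they were 0 and 3, beside 22.1% and 22.3%. Irak2 stood at 0.70 and 0.99 and Tbk1 at 0.70 and 0.85 with TMM. Ikbke, encoding a kinase of interferon regulatory factors, was higher in TRP-1MV at 1.12 [0.97, 1.27] and stood at 0.73 in the MV left tumor. Irak1 and Irak4, kinases of the MyD88 complex, stood at −0.68 and −0.70 in the MV left tumor. Their TRP-1MV ratios were −0.66 and −0.44.

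Negative regulators were higher for 7 of 9 genes in both tumors, with medians of 2.52 and 2.83, beside 18.1% and 18.5% of all genes higher and all-gene medians of −0.05 and −0.07. Irak3, encoding a kinase-like inhibitor of MyD88 signalling, stood at 4.07 [3.57, 4.62] and 4.76 [4.26, 5.30], and Tnfaip3, encoding the ubiquitin-editing enzyme A20, at 3.90 and 3.97. Nlrc3 stood at 2.96 and 3.02, Socs1 at 2.54 and 2.96, Dok3 at 2.52 and 2.83, the deubiquitinase gene Cyld at 1.77 in both, and Sigirr at 1.07 and 1.19, whereas Tollip at 0.23 and 0.18 was no call. Of 7 transcription factors 5 were higher in both tumors, beside the same shares of all genes. Irf8 stood at 3.82 and 4.18, Irf5 at 3.45 and 4.06, Irf7 at 2.95 and 3.53, and the NF-kB subunits Rel at 2.87 and 3.02 and Rela at 1.25 and 1.36, while Irf3 at 0.24 and 0.20 and Nfkb1 at 0.73 and 0.83 were no calls.

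**Figure D4:**
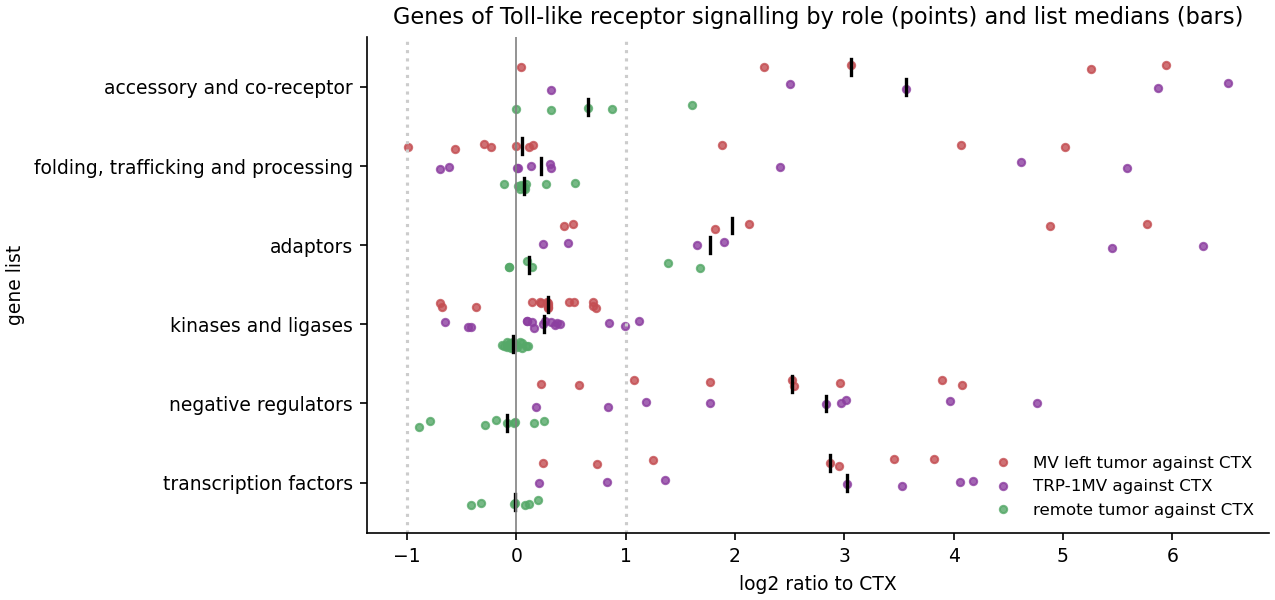
Log2 ratios to CTX (x axis) of genes in 6 lists of Toll-like receptor signalling, 1 point a gene past the minimum count, colored by library, with black bars for list medians and dotted lines at a ratio of 2. Kinases and ligases lie between −0.70 and 1.12, while Cd14, Cd36, Ticam2 and Slc15a3 pass 5 in the MV left tumor and TRP-1MV.

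Tlr11 and Tlr12, receptors of the protozoan protein profilin that mice also carry, had few reads. Tlr11 reads numbered 4 in the MV left tumor, 5 in TRP-1MV, 2 in the remote tumor and 3 in CTX. Tlr12 reads numbered 13, 15, 9 and 26 in that order, and its difference between the remote tumor and CTX was called at −1.58 [−2.86, −0.45].

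Promoters of 8 of the 10 members, from 250 bases before to 50 after the annotated start, were found in RefSeq (GRCm38.p6). Among the members called higher, 6 had a promoter there, and 4 of these (Tlr1, Tlr8, Tlr9 and Tlr13) held GAGGAA, the core bound by the myeloid and B cell factor PU.1, on either strand in at least 1 promoter. Counted by promoter, 4 of the 8 promoters of these 6 genes held it, and 28.3% of 32851 promoters of this length did. The NF-kB consensus was found in Tlr2 and Tlr3 and in 8.46% of all promoters, and the core of the interferon-stimulated response element (GAAA, any 2 bases, GAAA) in 1 of the 2 Tlr6 promoters and in 3.44%. An E-box (CACGTG or CATGTG), the kind of site bound by the melanocyte factor MITF, was found in 1 of the 2 Tlr1 promoters and in 20.4% of all. These matches describe letters, not binding. The promoters of Tlr13 and Tlr9, higher in both tumors, are shown with GAGGAA or its reverse complement in capitals, and those of Tlr2, higher, and Tlr3, lower, with the NF-kB consensus in capitals. They lie at chrX:106143025-106143324 (plus strand), chr9:106222348-106222647 (plus), chr3:83841559-83841858 (minus) and chr8:45410331-45410630 (minus).
Tlr13: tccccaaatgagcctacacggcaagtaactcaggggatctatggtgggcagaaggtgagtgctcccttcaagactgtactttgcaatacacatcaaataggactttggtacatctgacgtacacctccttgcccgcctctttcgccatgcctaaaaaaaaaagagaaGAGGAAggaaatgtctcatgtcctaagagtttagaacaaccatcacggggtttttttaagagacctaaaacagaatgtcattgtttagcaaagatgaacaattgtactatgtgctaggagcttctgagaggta
Tlr9: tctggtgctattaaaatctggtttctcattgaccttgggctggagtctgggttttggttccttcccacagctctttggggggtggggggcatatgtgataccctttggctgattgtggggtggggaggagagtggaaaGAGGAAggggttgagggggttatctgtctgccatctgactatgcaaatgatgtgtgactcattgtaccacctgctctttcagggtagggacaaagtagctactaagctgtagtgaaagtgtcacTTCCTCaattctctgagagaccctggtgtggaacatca
Tlr2: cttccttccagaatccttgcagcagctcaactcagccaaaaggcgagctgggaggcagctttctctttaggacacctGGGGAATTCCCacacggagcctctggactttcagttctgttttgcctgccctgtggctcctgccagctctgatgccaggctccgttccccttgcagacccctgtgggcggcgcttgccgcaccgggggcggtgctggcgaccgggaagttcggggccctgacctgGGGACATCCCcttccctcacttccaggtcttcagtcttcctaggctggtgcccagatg
Tlr3: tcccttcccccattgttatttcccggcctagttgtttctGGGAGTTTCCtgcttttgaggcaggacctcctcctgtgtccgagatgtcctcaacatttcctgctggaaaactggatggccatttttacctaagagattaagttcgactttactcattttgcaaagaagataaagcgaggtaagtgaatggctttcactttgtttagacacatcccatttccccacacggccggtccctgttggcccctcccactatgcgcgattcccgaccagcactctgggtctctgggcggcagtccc

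The GAGGAA of Tlr13 began 83 bases before the RefSeq start and that of Tlr9 112 bases before it, with its reverse complement after the start. The final bases of the Tlr13 promoter and of both Tlr1 promoters were in no GENCODE transcript of those genes. The same held for the Tlr6 promoter with the interferon-stimulated core. For these promoters the start may differ between RefSeq and GENCODE. In Tlr2 the NF-kB consensus matched at 2 separate places, the first beginning 173 bases before the start, and overlapping matches on both strands are counted as 1 place. In Tlr3 the single match began 211 bases before the start. The same kind of match was present in the promoter of Tlr2, called higher, and in that of Tlr3, called lower with TMM. The part of these matches in either result was not tested.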

How the data were processed

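RNA from 4 tumor libraries, 1 per group, was measured by RNA-seq. Raw counts per gene symbol, as whole numbers without normalization, were deposited by the authors. HISAT2, featureCounts and the build mm10 are named in the submitters' processing notes. Not given in the sources used here are versions, annotation, strand setting and multimapper handling. Groups came from sample titles.

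TMM factors (edgeR 4.0.16, R 4.3.3), computed across the libraries, turned counts into CPM. Comparisons covered genes averaging 10 or more reads. Ratios carry 95% exact conditional binomial (Clopper-Pearson) intervals (scipy 1.17.1, numpy 2.4.6, pandas 2.3.3, Python 3.11.15), and were called at a ratio of at least 2 with an interval excluding 1. A count of 0 was replaced by 3 in ratios, and no ratio was given where both had 3 or fewer. The calling code was tested on simulated data. Positions and exon lengths came from GENCODE M21 of the same build, which holds 24366 of the 25239 symbols. Figures used matplotlib 3.10.9.

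Alternatives were total counts, 13 housekeeping genes, size factors of DESeq2 1.42.0, upper-quartile scaling, no minimum count or a mean of 50, a ratio of 4, an interval excluding 2, and thinning to 12375526 reads. The members, lists and rules were chosen with earlier results of these data known. The rule named all members, called genes of the pathway lists, and the highest and lowest of each list. Other uncalled genes of these lists were named after their values were seen. A gene of 1 marker list is not reported here. Pathway counts under other scalings were added after seeing the data.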

Additional observations from a re-analysis of the deposited data

How the results depend on the processing

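No paired analysis was possible because replicates were lacking (1 library a group), and none could be left out. Under 9 alternatives, 79 of 90 counts of members called stayed within 1.5 times the value reported, or at 0 where that value was 0. The count of members higher than CTX or than the remote tumor was among them in each comparison. The 11 that moved were all counts of members lower, where Tlr3 was the single call, and all went from 1 to 0. In the MV left tumor against CTX this happened on the housekeeping scale and with a ratio of 4. In TRP-1MV against CTX it happened with total counts, on the housekeeping scale, with a ratio of 4, with an interval excluding 2 and after thinning. In the MV left tumor against the remote tumor it happened with total counts, on the housekeeping scale, with a ratio of 4 and with an interval excluding 2. In TRP-1MV after thinning the Tlr3 log2 ratio was −0.96. Relative to TMM, the housekeeping scale added 0.54 to every log2 ratio of the MV left tumor to CTX and 0.53 to those of TRP-1MV, and total counts added 0.24 to both. On the housekeeping scale 3971 genes were higher and 493 lower in the MV left tumor, against 2411 and 1488 with TMM, and 3905 and 538 in TRP-1MV, against 2476 and 1559. Single log2 ratios of members were followed only under the other scalings and after thinning. Of these, 218 kept their call or lack of one, and the 6 that lost it were those of Tlr3. The changed minimum counts, the ratio of 4 and the interval excluding 2 were not part of that count. Calls of other members can be lost there. Tlr1, 3.54-fold higher in the MV left tumor than in the remote tumor, fell short of a ratio of 4. The count of pathway genes higher than CTX was 23 in the MV left tumor and 24 in TRP-1MV. On the housekeeping scale it was 31 and 29, beside 29.7% and 29.2% of all genes. With total counts it was 23 and 28, beside 22.1% and 22.3%. The surface share without Tlr3 and Tlr4 was 41.9% in the MV left tumor, 40.3% in TRP-1MV, 73.1% in the remote tumor and 54.3% in CTX. Without Tlr1 and Tlr6 it was 54.6% in the MV left tumor and 50.9% in TRP-1MV. Per kilobase of exon and after thinning it stayed within the counting interval in the 4 libraries. Depth limits the comparison of the remote tumor with CTX for Tlr5, Tlr6, Tlr7, Tlr8 and Tlr9, which had 10 reads or fewer in each. It also limits that of Tlr13, with 15 and 22 reads.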

Other observations

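For the 4 members with at least 20 reads in every library, the 3 genes with the most similar log2 ratios to CTX over the other 3 libraries were sought among 11058 genes with a mean of at least 50 reads. Likeness was the largest absolute difference over the 3 ratios, which share the CTX library. Tlr2 was nearest to Lpl, encoding lipoprotein lipase (largest difference 0.18), then to Myo1f, encoding a leukocyte myosin (0.20), and Slc39a4 (0.21), and only 4 genes lay within 0.25 of it. Tlr1 was nearest to Adora2b, encoding an adenosine receptor (0.04), Pld4 (0.10) and Rasa4 (0.10), with 7 genes within 0.25. Slc39a4 had only 8 reads in CTX and 18 in the remote tumor, and Adora2b 22 and 34. Both passed the mean of 50 through the MV left tumor and TRP-1MV alone. Tlr3 was nearest to Col4a1, encoding a basement membrane collagen (0.05), Fam114a1 (0.06) and Cmbl (0.06), and Tlr4 to Rhobtb1 (0.05), Pde4d (0.07) and Tmem120b (0.07). As many as 306 genes lay within 0.25 of Tlr3 and 717 of Tlr4, so those 2 patterns were common ones among the genes considered.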
